A study of Mus musculus with 16 samples.

Results

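The genes described here bundle actin filaments, cross-link them, or lie along them: Fscn1, Lima1, Tpm1, Tpm2, Tpm3, Tpm4, Marcks, Marcksl1, Actn1 and Myo1e. These 10 genes were found among 19938 genes measured by a probe set with a single gene symbol on Affymetrix Mouse Gene 1.0 ST arrays, and each was read from the probe set chosen by the highest mean over all 16 arrays. That mean was the only measured value in the rule, and it decided the probe set of Tpm3 alone. The genes were named with earlier results of these arrays known, so their calls describe these arrays and are not independent support for any pattern.

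The 16 arrays came from 8 B6 mice, and every mouse carried 1 GFP allele at Zbtb46, a transcription factor gene of classical dendritic cells (Zbtb46 GFP/+). Mice were either Ciita -/- (KO) or Ciita +/+ (WT); Ciita encodes the transactivator of the major histocompatibility complex class II genes. Each mouse gave 1 array of sorted CD24+ cells, the subset that corresponds to cDC1, and 1 of sorted CD172a+ cells, the subset that corresponds to cDC2. The cells came from the unstimulated spleen of 4 mice, or from bone marrow of 4 other mice cultured for 9 days in 5% Flt3l, a growth factor for dendritic cells. The cultured cells were stimulated with gamma interferon (16 hours per the design text, 22 per the growth protocol) before 4 hours of LPS. This makes 8 groups of 2 arrays, 1 for each tissue, subset and genotype. The ages of the mice are not given in the labels.

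Actin filaments are the scaffold of the dendritic cell cortex and of the long processes that mature dendritic cells extend. Fascin (Fscn1) packs filaments into tight parallel bundles and is a known marker of mature dendritic cells. Alpha-actinin 1 (Actn1) cross-links filaments more loosely, EPLIN (Lima1) holds filaments side by side and slows their turnover, and the tropomyosins (Tpm1 to Tpm4) are coiled coils that lie in the groove of the filament and decide which other proteins can reach it. MARCKS and its relative MARCKS-like 1 (Marcksl1) bind both the membrane and actin and are released from the membrane by protein kinase C. Myosin 1e (Myo1e) is a single-headed motor that links actin to membranes.

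The subset labels were borne out by Clec9a and Xcr1, which were high in CD24+ arrays, and by Sirpa, which encodes CD172a. Xcr1 ranged from 9.58 to 12.17 on the log2 scale in CD24+ arrays and from 6.27 to 6.82 in CD172a+ arrays. The cDC2 side was less marked in culture. There 5 of 9 cDC2 markers were lower in CD24+ cells (median -0.65), against 9 of 9 in spleen (median -2.76). Of all tested genes, 13.7% and 13.4% were lower. Itgam overlapped in culture, at 6.61 to 8.16 in CD172a+ and 6.31 to 7.12 in CD24+ arrays. The KO arrays had 7.90 to 12.45 for the class II gene H2-Eb1 against 13.47 to 14.08 in the WT arrays. The Ciita probe set itself gave 7.17 to 9.70 in KO against 10.15 to 10.85 in WT culture arrays, but 10.90 to 11.28 against 10.97 to 11.40 in spleen, so that in spleen the genotype labels rest on H2-Eb1. One library stood apart: the culture CD24+ KO replicate 2 array had the lowest Xcr1 (9.58) and the highest Sirpa (9.17) of the CD24+ culture arrays. Median signal over the tested genes lay between 7.37 and 7.39 for spleen but between 6.89 and 6.97 for culture, and culture was therefore compared with spleen after each array was centred on its median. Tissue, culture, activation and array set change together here and cannot be told apart. In sorted bulk RNA, fewer cells of a type and less RNA per cell cannot be told apart either.

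The question of the first comparison was how activated cultured dendritic cells differed from resting splenic ones in each subset. In CD172a+ cells, 8 of the 10 members were higher in culture, 1 (Myo1e) was lower and 1 (Tpm2) did not pass the test; over all tested genes 78.9% passed, 49.4% upwards and 29.5% downwards. In CD24+ cells, 8 were higher and 2 (Lima1 and Tpm2) lower, against 76.6% of all genes called, 47.1% upwards and 29.5% downwards. The higher members include Tpm3 in both subsets, whose direction depended on the probe set. In CD24+ cells they also include Myo1e, whose sign rested on the centring. The centred arrays of the tissues did not overlap for 9 members in CD172a+ cells and 8 in CD24+ cells, and for 73.8% and 69.8% of all tested genes. The median log2 change of the members was 1.53 in CD172a+ and 1.09 in CD24+ cells, beside 0.15 and 0.13 over all tested genes. All calls are from limma with Benjamini-Hochberg adjustment over all tested genes at 0.05, and changes are log2 differences ± SE.

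**Figure D1:**
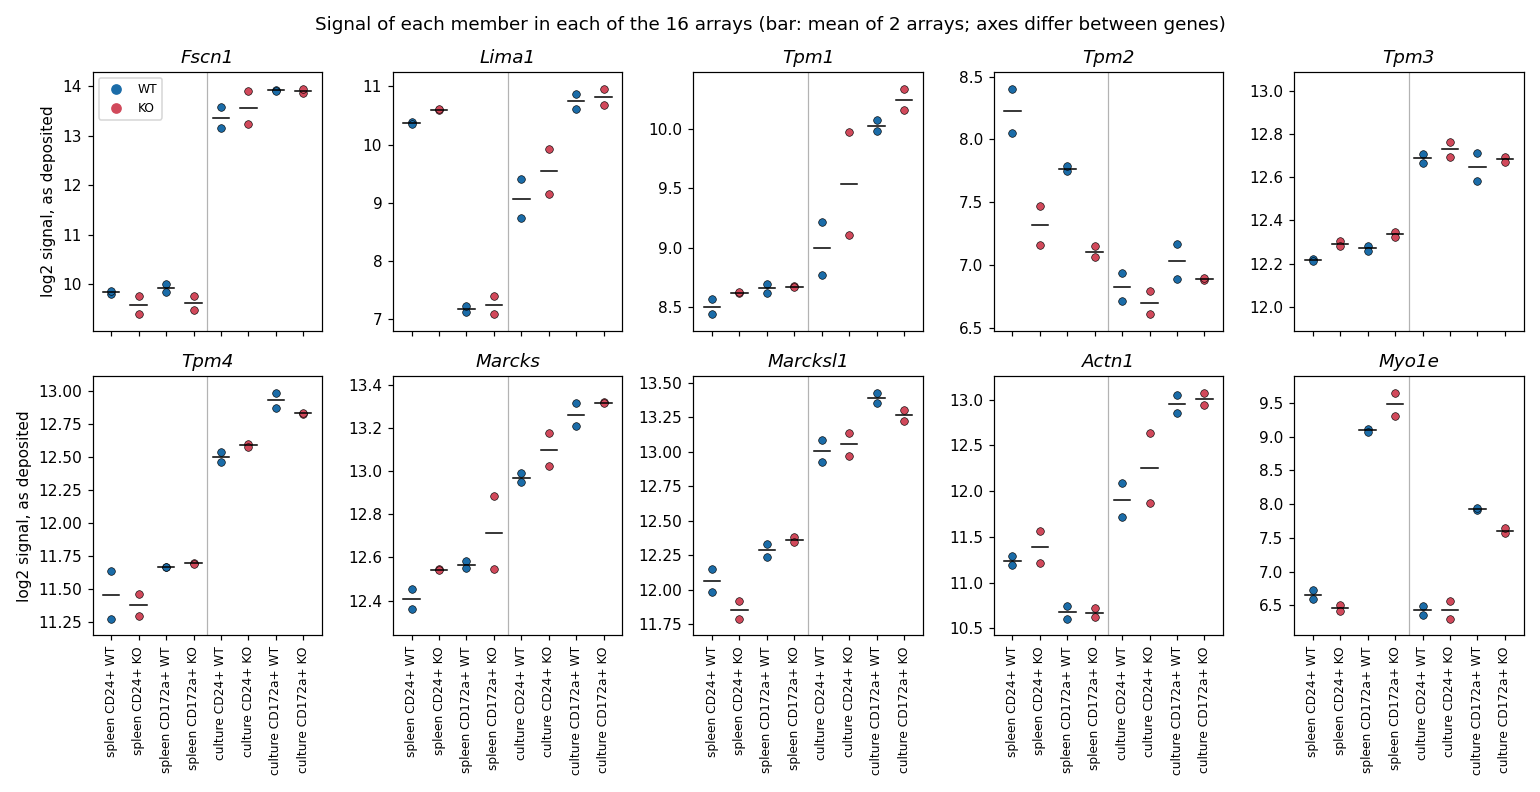
Deposited log2 signal of each of the 10 genes in each of the 16 arrays, 1 panel a gene with its own vertical axis; points are arrays (blue WT, red KO), bars are means of 2 arrays, and the vertical line separates spleen from culture. Fscn1 lies between 9.39 and 10.01 in all spleen arrays and between 13.15 and 13.95 in all culture arrays, whereas Lima1 and Myo1e divide the subsets.

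Fscn1 had the largest change of the members. Its log2 signal in spleen was 9.39, 9.75, 9.81 and 9.85 in the CD24+ arrays and 9.48, 9.76, 9.84 and 10.01 in the CD172a+ arrays. In culture it was 13.23, 13.91, 13.58 and 13.15 in the CD24+ arrays and 13.86, 13.95, 13.92 and 13.91 in the CD172a+ arrays. Every culture array lay above every spleen array, and the culture CD172a+ arrays were nearly equal. After centring, Fscn1 rose by 4.23 ± 0.14 in CD24+ cells (18.8-fold, limma adjusted p = 9.96e-11) and by 4.57 ± 0.14 in CD172a+ cells (23.7-fold, limma adjusted p = 3.60e-11). The change exceeded that of 99.8% of the tested genes in both subsets.

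The genes whose pattern over the 8 groups was nearest to that of Fscn1 were Insl6, a member of the insulin-like family, BC023105, and Socs2, a suppressor of cytokine signalling. Nearness was the root mean square difference of the gene-centred means of the 8 groups: 0.21 for Insl6 and 0.23 for both BC023105 and Socs2, where the pattern of Fscn1 itself had a root mean square of 2.21. Among the members, Actn1 was the nearest to Fscn1, at 1.25.

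Actn1 and Tpm1 rose in both subsets, and more in CD172a+ cells. Actn1 signal in CD172a+ arrays was 10.62, 10.72, 10.61 and 10.74 in spleen and 12.94, 13.07, 13.05 and 12.85 in culture. In CD24+ arrays it was 11.21, 11.56, 11.19 and 11.29 in spleen and 11.88, 12.64, 12.09 and 11.72 in culture. The tissues did not overlap in either subset, and the second of the culture CD24+ values, that of the array that stood apart, was well above the other 3. Actn1 rose by 2.73 ± 0.14 in CD172a+ cells (6.65-fold, limma adjusted p = 4.41e-09) and by 1.23 ± 0.14 in CD24+ cells (2.35-fold, limma adjusted p = 6.75e-06).

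Tpm1 showed the same order. It was flat in spleen, between 8.44 and 8.69 in all 8 arrays. In culture it was 9.10, 9.97, 9.22 and 8.77 in the CD24+ arrays and 10.15, 10.34, 10.08 and 9.98 in the CD172a+ arrays, so all culture arrays lay above all spleen arrays. The change was 1.90 ± 0.15 in CD172a+ cells (limma adjusted p = 1.64e-07) and 1.16 ± 0.15 in CD24+ cells (limma adjusted p = 1.41e-05). Without the culture CD24+ KO replicate 2 array, the CD24+ changes were 1.05 for Actn1, 0.96 for Tpm1 and 4.07 for Fscn1.

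Tpm4, Marcks and Marcksl1 rose by nearly the same amount in both subsets. Tpm4, the tropomyosin with the largest change in CD24+ cells, ranged from 11.27 to 11.69 in spleen and from 12.46 to 12.98 in culture. It rose by 1.59 ± 0.07 in CD24+ cells (limma adjusted p = 2.54e-09) and by 1.62 ± 0.07 in CD172a+ cells (limma adjusted p = 1.56e-09). Marcksl1 ranged from 11.79 to 12.38 in spleen and from 12.93 to 13.43 in culture, with changes of 1.53 ± 0.06 and 1.43 ± 0.06. Marcks, at 12.36 to 12.88 in spleen and 12.95 to 13.32 in culture, rose by 1.02 ± 0.07 and 1.07 ± 0.07. For all 3 genes the tissues did not overlap. Tpm4 and Marcksl1 had the most similar patterns of any pair of members, with a root mean square difference of 0.08 over the 8 groups.

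**Figure D2:**
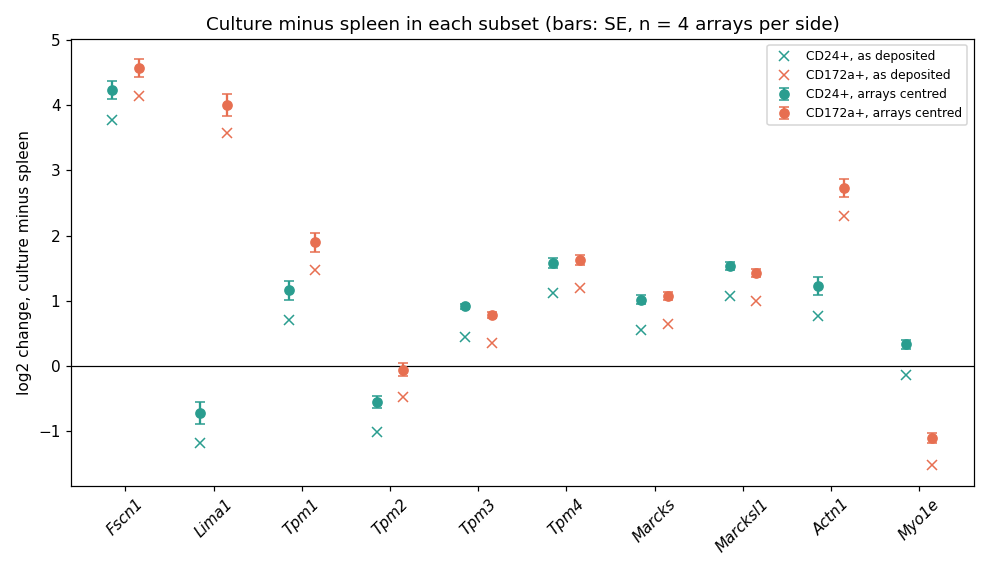
Log2 change from spleen to culture for each gene in CD24+ (green) and CD172a+ cells (orange); circles are changes after centring with their SE (4 arrays on each side), and crosses are the same changes without centring. Centring adds about the same amount to every gene, which moves Myo1e in CD24+ cells from -0.13 to 0.33 and Tpm2 in CD172a+ cells from -0.48 to -0.05.

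The Tpm3 result depended on the probe set. By the probe set with the highest mean (10416940), Tpm3 was 12.21 to 12.35 in spleen and 12.58 to 12.76 in culture and rose by 0.92 ± 0.05 in CD24+ and 0.79 ± 0.05 in CD172a+ cells (limma adjusted p = 3.65e-09 and 1.10e-08). The array holds 3 other probe sets annotated to Tpm3 alone, and with every probe set tested singly they disagreed. Probe set 10549979 gave 0.77 ± 0.06 and 0.65 ± 0.06, and 10560000 gave 0.28 ± 0.06 and 0.16 ± 0.06, in CD24+ and CD172a+ cells respectively. Probe set 10493633 gave -0.12 ± 0.07 in CD24+ cells (limma adjusted p = 0.142) and fell by 0.38 ± 0.07 in CD172a+ cells (limma adjusted p = 3.10e-04). These changes are after centring. As deposited, 10493633 was 9.34 to 9.58 in spleen and 8.79 to 8.98 in culture CD24+ arrays. In CD172a+ arrays it was 9.57 to 9.64 and 8.60 to 8.98. Probe set 10560000 had lower deposited means in culture, 9.42 against 9.57 in CD24+ and 9.37 against 9.60 in CD172a+ cells, so its sign rested on the centring.

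RefSeq lists Tpm3 itself on chromosome 3 (chr3:90072651-90100902, GRCm38.p6) and 3 pseudogene copies, on chromosomes 4, 6 and 14. Of the 20 probe sets with the numbers nearest to 10493633, all 20 name genes of chromosome 3, whereas for 10416940 all 20 name genes of chromosome 14, where the copy Tpm3-rs7 lies. For 10549979 and for 10560000 all 20 name genes of chromosome 7. Which transcripts each probe set reads was not tested, so the direction for Tpm3 is uncertain. A further Tpm4 probe set (10448202), which also names the pseudogene Gm7809 of chromosome 17, rose by 0.70 ± 0.10 and 0.66 ± 0.10, in the same direction as the 1.55 and 1.59 of the Tpm4 probe set in that test.

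**Figure D3:**
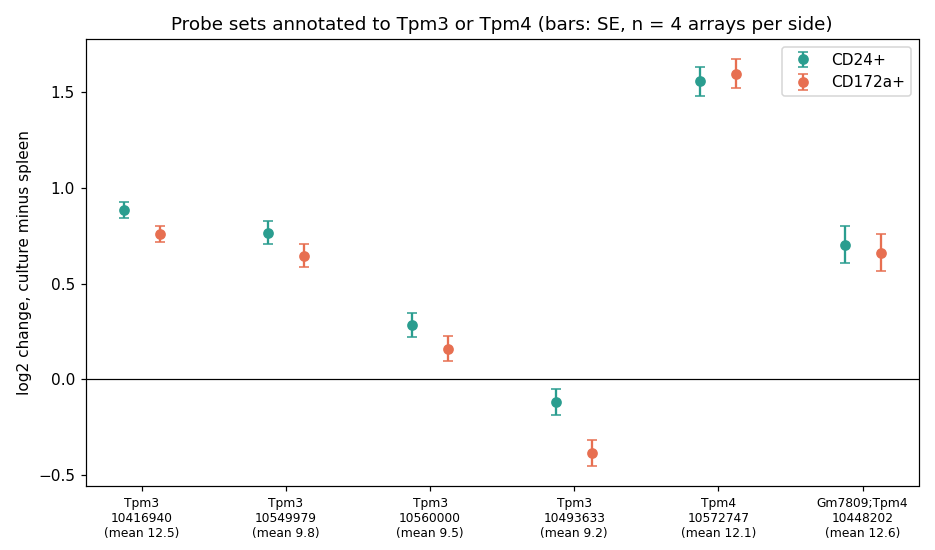
Log2 change from spleen to culture (arrays centred, SE, 4 arrays on each side) for each probe set annotated to Tpm3 or Tpm4, in CD24+ (green) and CD172a+ cells (orange), with the mean log2 signal of each probe set over all 16 arrays under its number. The Tpm3 probe sets run from 0.88 down to -0.12 in CD24+ cells and from 0.76 down to -0.38 in CD172a+ cells, while both Tpm4 probe sets are above 0.

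Lima1, Myo1e and Tpm2 did not rise alike in both subsets. Lima1 rose in CD172a+ and fell in CD24+ cells, Myo1e fell in CD172a+ cells and rose in CD24+ cells only after centring, and Tpm2 rose in neither. The 250 bases before the start of Lima1 and Myo1e are shown because these genes had the largest differences between subsets and were the only members with a CArG box, the site of serum response factor (Srf), in that window. The sequences are RefSeq's (GRCm38.p6), 5′ to 3′ towards the start, and capitals mark the CArG box and CCAAT, read on either strand. The Lima1 window is chr15:99820150-99820399 on the minus strand, with its CArG box beginning 47 bases before the start. The Myo1e window is chr9:70207100-70207349 on the plus strand, with its CArG box beginning 32 bases before the start.
Lima1: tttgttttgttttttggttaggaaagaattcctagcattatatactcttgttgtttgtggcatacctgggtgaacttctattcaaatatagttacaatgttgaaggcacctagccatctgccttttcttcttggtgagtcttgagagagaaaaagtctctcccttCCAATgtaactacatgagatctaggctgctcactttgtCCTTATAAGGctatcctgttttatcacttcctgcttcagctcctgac
Myo1e: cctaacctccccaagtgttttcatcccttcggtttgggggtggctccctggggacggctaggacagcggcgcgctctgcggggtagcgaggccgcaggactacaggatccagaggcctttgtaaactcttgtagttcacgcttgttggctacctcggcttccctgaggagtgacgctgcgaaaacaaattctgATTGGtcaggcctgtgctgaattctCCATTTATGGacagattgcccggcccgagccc
Of the 10 members, 9 had windows in the table, 10 windows in all, and Marcks had none. The CArG box was in 2 of the 10 member windows and in 1.47% of 32851 windows of the same length. CCAAT was in 5 and in 33.8%, and the kB site, TTCNNNGAA and TGANTCA were in 0 of the member windows and in 7.25%, 7.02% and 6.75% of all windows. Both strands were searched. A match here is only a run of letters, and binding was not measured.

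Lima1 changed in opposite directions in the subsets. In spleen its signal was 10.60, 10.60, 10.38 and 10.35 in the CD24+ arrays but 7.09, 7.40, 7.12 and 7.23 in the CD172a+ arrays. In culture it was 9.16, 9.93, 9.40 and 8.74 in the CD24+ arrays and 10.96, 10.68, 10.61 and 10.87 in the CD172a+ arrays. The subset with the higher Lima1 thus differed between the tissues, and the subsets did not overlap in either. Lima1 rose by 4.00 ± 0.16 in CD172a+ cells (limma adjusted p = 5.69e-10). The values have no detection call here, and Lima1 in spleen CD172a+ arrays, Myo1e in CD24+ arrays and Tpm2 in most arrays lay near the array median and were not shown to be above background, so no fold is given against them. In CD24+ cells it fell by 0.71 ± 0.16 (limma adjusted p = 0.00175), and there the centred arrays of the tissues overlapped.

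Myo1e was a gene of the CD172a+ subset in both tissues. Its signal in CD172a+ arrays was 9.31, 9.65, 9.12 and 9.07 in spleen and 7.57, 7.65, 7.91 and 7.94 in culture. In CD24+ arrays it was 6.50, 6.42, 6.59 and 6.72 in spleen and 6.31, 6.56, 6.50 and 6.36 in culture. In CD172a+ cells every culture array was below every spleen array, and Myo1e fell by 1.09 ± 0.08 (limma adjusted p = 6.15e-08). In the same comparison 8 of 9 cDC2 markers fell and 0 rose (median -2.74), as did 6 of 9 macrophage and monocyte markers while 2 rose (median -2.73). Over all tested genes 29.5% fell and 49.4% rose there. The mean level of the cDC2 markers relative to the array median was 3.11 to 3.16 in spleen and 0.21 to 0.64 in culture CD172a+ arrays, and that of the macrophage and monocyte markers 1.72 to 2.43 and 0.17 to 0.39. The part of such cells in the Myo1e values was not tested. In CD24+ cells its sign rested on the centring: 0.33 ± 0.08 with it (limma adjusted p = 0.00158) and -0.13 ± 0.08 on the values as deposited (limma adjusted p = 0.154). With WT arrays alone the centred change was 0.22 (limma adjusted p = 0.0824).

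Tpm2, the beta tropomyosin of muscle, was highest in WT spleen. Its signal in spleen was 7.47, 7.16, 8.40 and 8.05 in the CD24+ arrays and 7.15, 7.06, 7.75 and 7.79 in the CD172a+ arrays, the KO values first in each series. In culture it was 6.61, 6.79, 6.94 and 6.72 in the CD24+ arrays and 6.88, 6.90, 6.89 and 7.17 in the CD172a+ arrays. The WT spleen arrays were the highest of all, and the KO spleen arrays overlapped those of culture. Culture minus spleen was -0.55 ± 0.10 in CD24+ cells (limma adjusted p = 2.18e-04), with overlapping centred arrays. In CD172a+ cells it was -0.05 ± 0.10 after centring (limma adjusted p = 0.624) but -0.48 ± 0.10 on the values as deposited (limma adjusted p = 7.28e-04), so the call there rested on the scale.

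Other genes of the actin machinery were counted from lists chosen with results of these arrays known. These counts, and those over all tested genes, are after centring and were not made on the deposited values. Over the 170 genes of all the lists, with those of Srf and of maturation, the median change was 0.31 in CD24+ and 0.28 in CD172a+ cells. Changes of this size can turn on the deposited values, as that of Myo1e in CD24+ cells did (0.33 after centring, -0.13 as deposited). Over all tested genes 47.1% rose and 29.5% fell in CD24+ cells, and 49.4% rose and 29.5% fell in CD172a+ cells. Of 30 further cross-linkers and bundlers, 16 rose and 10 fell in CD24+ cells (53.3% and 33.3%, near the shares of all genes), and 19 rose and 7 fell in CD172a+ cells (63.3% and 23.3%). Palld, a scaffold of actin bundles, rose by 1.27 and 1.53, and Iqgap2, a scaffold protein that binds actin, had changes of -2.29 and -1.08. Of 13 tropomyosin-linked factors, 8 rose and 3 fell in CD24+ cells (61.5% and 23.1%), and 10 rose and 3 fell in CD172a+ cells (76.9% and 23.1%). Cnn3, a calponin that binds actin and tropomyosin, rose by 3.29 ± 0.08 and 4.24 ± 0.08, and Tmod3, a tropomodulin that caps the pointed ends of tropomyosin-coated filaments, by 2.20 ± 0.11 and 1.46 ± 0.11.

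Actins and myosins (28 measured) had 17 higher and 7 lower in CD24+ cells and 17 higher and 8 lower in CD172a+ cells, so 60.7% rose in each subset where 47.1% and 49.4% of all genes did. Among them, Myo10, the myosin of filopodial tips, rose by 1.53 and 1.78. Myo1f, a class I myosin of leukocytes like Myo1e, fell in both, with -0.91 in CD24+ and -4.09 in CD172a+ cells. Of 51 nucleation and turnover genes, 31 rose and 8 fell in CD24+ cells (60.8% and 15.7%). In CD172a+ cells 25 rose and 19 fell (49% and 37.3%, the first near the share of all genes). Over all tested genes 29.5% fell in each subset. Among the genes of this list that fell was Evl, which promotes filament elongation, with changes of -2.76 and -3.10. The 27 linkers to membranes and adhesion sites had 16 higher and 9 lower in CD24+ cells (59.3% and 33.3%). In CD172a+ cells they had 16 higher and 6 lower (59.3% and 22.2%). Lpp, a zyxin relative, rose by 2.03 and 1.43, and Parvg, a parvin of leukocytes, had changes of -1.72 and -4.06.

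Of the 7 genes of Srf and its partners, 2 rose and 4 fell in CD24+ cells (28.6% and 57.1%). In CD172a+ cells 1 rose and 3 fell (14.3% and 42.9%). Over all tested genes 47.1% rose and 29.5% fell in CD24+ cells, and 49.4% and 29.5% in CD172a+ cells. Srf itself fell (-1.55 and -1.10), while its actin-regulated coactivator Mrtfa rose by 1.06 and 1.24. Of the 14 mature dendritic cell markers, 13 rose and 0 fell in CD24+ cells (92.9% and 0%). In CD172a+ cells 13 rose and 1, Cd83 (-0.47), fell (92.9% and 7.14%). The median changes of these markers were 2.20 and 2.66. The chemokine Ccl17 rose by 3.72 in CD24+ cells and Ccl22 by 4.98 in CD172a+ cells.

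Markers of cells that carry much tropomyosin and actinin were examined beside these changes. Of 13 fibroblast, smooth muscle and endothelial markers, 8 rose and 3 fell in CD24+ cells and 10 rose and 3 fell in CD172a+ cells, with medians of 0.30 and 0.24, where 47.1% of all genes rose and 29.5% fell in CD24+ cells and 49.4% and 29.5% in CD172a+ cells. Their mean level relative to the array median was -0.29 to -0.16 in spleen arrays and -0.0021 to 0.142 in culture arrays. Among the defining markers, on the same centred scale, Col1a1 was at 0.60 to 0.78 in spleen and 1.23 to 1.35 in culture. Acta2 was at -0.69 to -0.47 and -0.49 to -0.36, and Tagln at -0.71 to -0.42 and -0.27 to -0.09. On the values as deposited, Acta2 was lower in culture, at 6.67 to 6.91 in spleen and 6.40 to 6.60 in culture. Tagln as deposited overlapped, at 6.68 to 6.95 and 6.67 to 6.85, as did Col1a1, at 7.97 to 8.18 and 8.13 to 8.32. The marker counts and medians are after centring and were not made on the deposited values. Of 5 megakaryocyte and platelet markers, 0 rose and 3 fell in both subsets. The part of such cells in the member values was not tested.

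The second question was how the subsets differed within a tissue. In spleen, 6 of the 10 members differed between CD24+ and CD172a+ cells, 3 in each direction, where 29.1% of all tested genes were called, 15.6% higher and 13.4% lower. The arrays of the subsets did not overlap for 6 members, with Marcks and without Tpm2, and for 33.3% of all tested genes. Lima1 was higher in CD24+ cells by 3.28 ± 0.17 (limma adjusted p = 1.77e-08). Actn1 was higher by 0.64 ± 0.15 (limma adjusted p = 0.00502), with no overlap of the arrays listed above. Tpm2 was higher by 0.33 ± 0.10 (limma adjusted p = 0.0224), with overlap and with large spread between the genotypes, and it lost its call on leaving out any of 5 of the 8 spleen arrays.

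Lower in splenic CD24+ cells were Myo1e, Marcksl1 and Tpm4. Myo1e had a log2 difference of -2.73 ± 0.08 (limma adjusted p = 8.96e-11). Marcksl1 was 11.79, 11.92, 12.15 and 11.98 in CD24+ arrays and 12.38, 12.34, 12.33 and 12.24 in CD172a+ arrays, a difference of -0.36 ± 0.06 (limma adjusted p = 7.83e-04) with no overlap. Tpm4 differed by -0.26 ± 0.07 (limma adjusted p = 0.0155), and this call was lost without spleen CD24+ KO replicate 2 (-0.22, limma adjusted p = 0.0690) or spleen CD24+ WT replicate 1 (-0.17, limma adjusted p = 0.0514). Fscn1, Tpm1, Tpm3 and Marcks did not pass, with differences of -0.07, -0.10, -0.05 and -0.17. Without spleen CD172a+ KO replicate 2 the Marcks difference was -0.25.

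In culture, 8 of the 10 members were lower in CD24+ than in CD172a+ cells and 0 were higher, where 24.9% of all tested genes were called, 11.2% higher and 13.7% lower. The differences were -1.47 ± 0.17 for Lima1 (2.77-fold, limma adjusted p = 4.65e-05), -1.34 ± 0.08 for Myo1e, -0.90 ± 0.15 for Actn1 and -0.87 ± 0.15 for Tpm1. Smaller differences were -0.34 ± 0.07 for Tpm4, -0.30 ± 0.06 for Marcksl1 and -0.25 ± 0.07 for Marcks, with no overlap between the subsets for any of these 7 genes (22.3% of all tested genes had none). Fscn1 differed by -0.44 ± 0.14 (limma adjusted p = 0.0378) with overlapping arrays. Tpm2 (-0.20, limma adjusted p = 0.194) and Tpm3 (0.04, limma adjusted p = 0.584) did not pass.

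The culture CD24+ KO replicate 2 array had Xcr1 and Sirpa values toward the CD172a+ side, but other markers did not follow. Its Itgam (6.31) was the lowest of the CD24+ culture arrays, and its Flt3 (11.41) lay within their range of 11.12 to 11.58. Its mean of the cDC2 markers relative to the array median was -0.32. That mean was -0.47 to -0.37 in the other CD24+ and 0.21 to 0.64 in the CD172a+ culture arrays. The part of CD172a+ cells in this array was not tested. It had the highest Fscn1, Lima1, Tpm1 and Actn1 of the CD24+ culture arrays. Without it the differences were larger in size: -0.61 for Fscn1, -1.66 for Lima1, -1.09 for Tpm1 and -1.09 for Actn1, all 4 called by limma. The call for Fscn1 was lost in a fit of the culture arrays alone (limma adjusted p = 0.103) and on leaving out any of 6 other culture arrays. The call for Marcks was lost without culture CD24+ KO replicate 1, culture CD24+ WT replicate 2 or culture CD172a+ WT replicate 2 (limma adjusted p of 0.0608 to 0.0649).

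**Figure D4:**
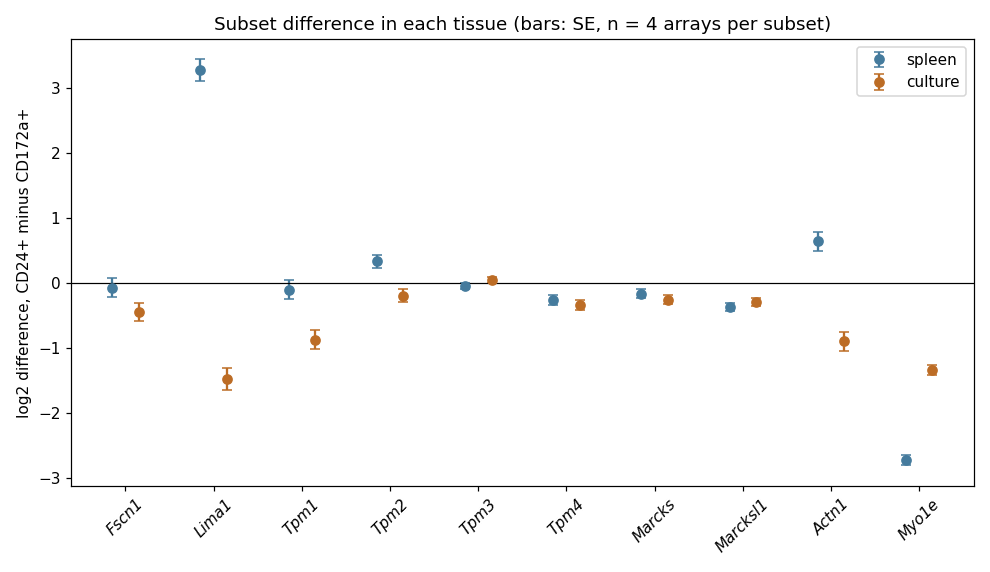
Log2 difference between CD24+ and CD172a+ cells for each gene in spleen (blue) and culture (brown); bars are SE and each subset has 4 arrays. Lima1 lies at 3.28 in spleen and -1.47 in culture and Actn1 at 0.64 and -0.90, while Myo1e is below 0 in both, at -2.73 and -1.34.

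The subset difference itself changed between the tissues for 5 members, 1 upwards and 4 downwards, where 28.2% of all tested genes did, 12.5% upwards and 15.7% downwards. Lima1 had the change -4.75 ± 0.24 (limma adjusted p = 3.50e-08), and its sign turned. Actn1 also turned, with -1.54 ± 0.21 (limma adjusted p = 1.28e-04). Tpm1 gave -0.77 ± 0.21 (limma adjusted p = 0.0174) and Tpm2 -0.53 ± 0.14 (limma adjusted p = 0.0130). Myo1e gave 1.39 ± 0.11 (limma adjusted p = 2.20e-06), which is a smaller gap between the subsets in culture with the same sign. For this contrast 9 of 9 cDC2 markers were higher (median 2.05), as were 6 of 9 macrophage and monocyte markers (median 1.75, with 1 lower), and 8 of 11 cDC1 markers were lower (median -1.03, with 3 higher). The part of these shifts in the member values was not tested. Fscn1, Tpm3, Tpm4, Marcks and Marcksl1 did not pass, with values from -0.37 for Fscn1 to 0.09 for Tpm3. Without the culture CD24+ KO replicate 2 array, Fscn1 passed as well (-0.54 ± 0.16, limma adjusted p = 0.0178).

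On the centred scale the order of the 8 group means can be read for each gene. For Tpm1, Tpm4, Marcks and Marcksl1, as for Fscn1 and Actn1, all 4 culture groups stood above all 4 spleen groups, and the 2 culture CD172a+ groups came first. For Fscn1 none of the neighbouring culture groups were separate in their arrays. For Lima1 the order was culture CD172a+, spleen CD24+, culture CD24+ and then spleen CD172a+, and the spleen CD172a+ groups were separate from all others. For Myo1e it was spleen CD172a+, culture CD172a+, culture CD24+ and spleen CD24+. For Tpm2 the spleen CD24+ WT and spleen CD172a+ WT groups came first and second, each separate from the next, and the last was spleen CD172a+ KO.

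The third question, the one the study was designed for, was what loss of Ciita changed. Of the 10 members, 1 passed in spleen CD24+ cells and 0 in spleen CD172a+, culture CD24+ and culture CD172a+ cells. Over all tested genes 0.0602%, 0.0802%, 0.0953% and 0.0602% passed in these 4 comparisons. Members with an unadjusted p under 0.05 numbered 2, 2, 1 and 1 of 10, beside 4.52%, 5.22%, 7.05% and 6.63% of all tested genes. No gene of the actin lists above passed in any of the 4.

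The gene that passed was Tpm2. In spleen CD24+ cells it was 7.47 and 7.16 in KO against 8.40 and 8.05 in WT, and in spleen CD172a+ cells 7.15 and 7.06 in KO against 7.75 and 7.79 in WT. The genotypes did not overlap in either subset; 34.1% and 37.7% of all tested genes were likewise free of overlap in these comparisons of 2 arrays with 2. Tpm2 fell by 0.91 ± 0.14 in CD24+ cells (limma adjusted p = 0.0490), just inside the threshold. The difference in CD172a+ cells was -0.66 ± 0.14 (limma adjusted p = 0.246), and the test of the difference between the subsets in this effect did not pass (-0.25 ± 0.20, limma adjusted p = 1.00). That test called 0 members in spleen or culture, and 0.01% and 0.0201% of all tested genes.

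The Tpm2 call was not stable. The limma adjusted p was 0.0557 with probe sets of several or no symbol added, 0.0844 in a fit of the spleen arrays alone and 0.0538 with the mouse as a random replicate block. It was 0.414 without spleen CD24+ KO replicate 2, 0.260 without WT replicate 1 and 0.108 without WT replicate 2 of that subset, and 0.0272 without KO replicate 1. The size of the difference stayed between -1.08 and -0.73 in these 4 fits. Averaged over both arrays of each mouse, an analysis added after the spleen values were seen, the spleen difference was -0.78 ± 0.09 (2 mice against 2, limma adjusted p = 0.0361, with 0.0752% of all tested genes called). That call was lost on leaving out any of the 4 spleen mice (limma adjusted p of 0.0801 to 0.376) or either WT culture mouse (0.138 each), and held without either KO culture mouse (0.0213 each).

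In culture mice Tpm2 gave -0.14 ± 0.09 (limma adjusted p = 0.788, with 0.0652% of all tested genes called). The difference between the tissues in that genotype effect was 0.65 ± 0.12 (limma adjusted p = 0.818, and 0.0357 without culture KO replicate 1), and it did not pass, where 0.00502% of all tested genes did. Over all 8 mice it was -0.46 ± 0.13 (limma adjusted p = 0.798), and 0 of the 10 members passed where 0.0351% of all tested genes did. Beside Tpm2, the mean of 10 neutrophil markers relative to the array median was examined. In spleen CD24+ replicates 1 and 2 it was -0.51 and 0.93 in KO against -0.27 and -1.03 in WT. In spleen CD172a+ cells that mean was -1.18 to -0.80 in KO and -1.18 to -1.13 in WT. S100a8 was 7.91 and 10.07 in the spleen CD24+ KO arrays and 8.06 and 6.21 in WT. In spleen CD24+ cells 0 of the 10 neutrophil markers were called between the genotypes. There 1 of 7 B and plasma cell markers was lower in KO, where 0.0602% of all tested genes were called. The part of such cells in the Tpm2 values was not tested.

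**Figure D5:**
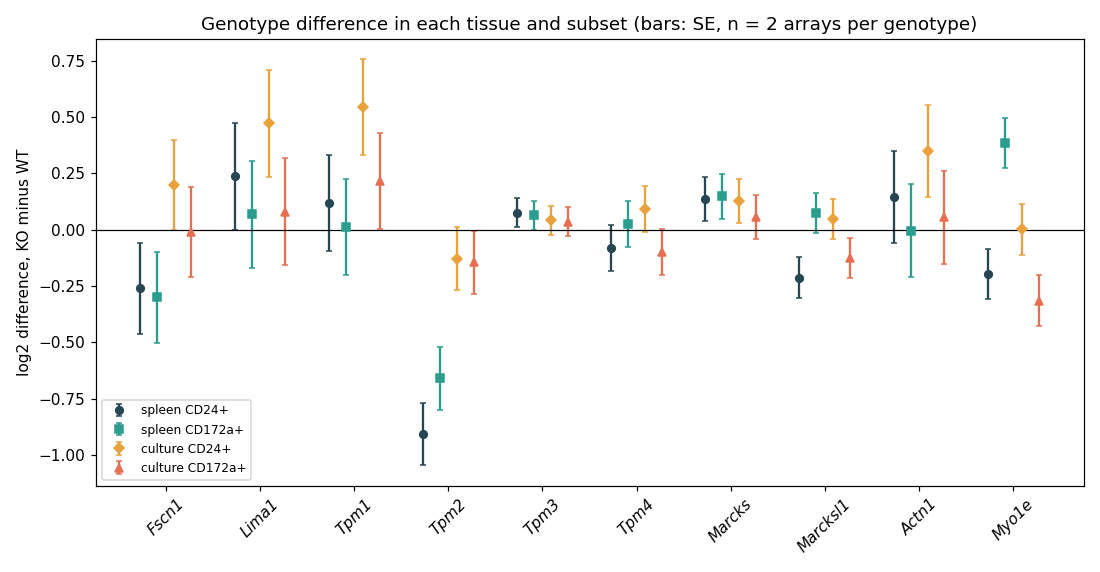
Log2 difference KO minus WT for each gene in the 4 combinations of tissue and subset; bars are SE and each genotype has 2 arrays. Tpm2 lies at -0.91 and -0.66 in the spleen subsets and at -0.13 and -0.14 in the culture subsets, and no other gene passes in any comparison.

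The nearest patterns to Tpm2 over the 8 groups were those of Sox12, an SRY-related transcription factor, Btnl2, a butyrophilin-like protein encoded in the class II region, and Rabl2, a Rab-like GTPase. Their root mean square differences were 0.17, 0.18 and 0.19, beside 0.35 for the pattern of Tpm2 itself, so these resemblances are loose.

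The other genotype differences did not pass. Myo1e was 9.31 and 9.65 in KO against 9.12 and 9.07 in WT spleen CD172a+ arrays (0.39 ± 0.11, limma adjusted p = 0.619) and 7.57 and 7.65 against 7.91 and 7.94 in culture CD172a+ arrays (-0.31 ± 0.11, limma adjusted p = 0.645). The arrays did not overlap in either (nor did those of 36.3% of all tested genes in culture CD172a+ cells), and the direction differed. In spleen CD24+ cells Marcksl1 gave -0.21 ± 0.09 (limma adjusted p = 1.00). In culture CD24+ cells Tpm1 gave 0.54 ± 0.21 (limma adjusted p = 0.646), and there the high KO replicate 2 array decided the value. Without KO replicate 1 it alone stood for KO, assumed to vary like the other groups, and 3 members passed, Tpm1 among them (0.98, limma adjusted p = 0.00323), together with 1269 of all tested genes. For Fscn1, the genotype difference lay between -0.30 and 0.20 in the 4 comparisons, with an SE of 0.20. The ranges were 0.07 to 0.47 for Lima1, -0.0035 to 0.35 for Actn1, 0.04 to 0.08 for Tpm3, -0.10 to 0.09 for Tpm4 and 0.06 to 0.15 for Marcks, with limma adjusted p of 0.742 or more.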

How the data were processed

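RNA of sorted cells was amplified with the Ovation Pico WTA system and hybridized to 16 arrays, per the labels. The deposited log2 signals, 1 per probe set, were made by the authors; their background correction, normalization and summarization are not given in the sources used here, and the log2 scale was read from the values (3.06 to 14.6). Array medians of 7.29 to 7.32 in spleen and 6.85 to 6.92 in culture differed between the tissues. For culture against spleen each array was therefore centred on its median over the tested genes, and other comparisons used the deposited values.

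Of 30177 probe sets, 21789 had 1 gene symbol (21698 named through the Entrez ID), 1621 several and 6767 none. The probe set with the highest mean was kept for the 999 genes with several. limma 3.58.1 in R 4.3.3 fitted 1 mean per group over all arrays (8 residual and 3.95 prior degrees of freedom), 2-sided, with Benjamini-Hochberg adjustment over 19938 genes at 0.05. Genotype over all mice used the mean of the 2 arrays of each mouse with tissue as a covariate.

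The labels' mouse numbers pair the CD24+ and CD172a+ arrays. Deviations from the group means correlated within a mouse at -0.0957 (spleen WT), 0.202 (spleen KO), 0.205 (culture WT) and 0.393 (culture KO). The fit has no block for the mouse, which was a block in an alternative. Other alternatives were quantile normalization, no or added centring, leaving out dim genes (lowest 20% by mean), the mean of a gene's probe sets, added probe sets, a trended robust fit, WT arrays alone, arrays of 1 tissue alone, and leaving out each array or mouse. Testing every probe set singly, and the genotype effect in the mice of each tissue, were added after seeing the data. No 2 arrays were identical.

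The text gives the 10 members in each kind of comparison (for genotype, some as ranges over the 4 tissue and subset combinations), and from each list up to 3 genes with the highest and 3 with the lowest change among those that passed, of which the text gives some. The 3 genes with the pattern nearest to Fscn1 and to Tpm2 are also named. Promoter windows are RefSeq's (GRCm38.p6). The members and lists were chosen with earlier results of these data known.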

Additional observations from a re-analysis of the deposited data

Results flagged for a closer look

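The difference between CD24+ and CD172a+ cells was not the same in spleen and culture for 5 of the 10 genes. This is by limma's test of that change itself over all 19938 tested genes. Of all tested genes 28.2% passed it, 12.5% upwards and 15.7% downwards. The change, culture minus spleen, was -4.75 for Lima1, -1.54 for Actn1, -0.77 for Tpm1, -0.53 for Tpm2 and 1.39 for Myo1e. Lima1 and Actn1 were higher in CD24+ cells of spleen and lower in CD24+ cells of culture, whereas Myo1e was lower in CD24+ cells of both. Tpm1 had a spleen difference of -0.10 and a culture difference of -0.87, and Tpm2 had 0.33 and -0.20. A constant log2 shift between the tissues cancels in this change. A shift that varied with signal would not cancel, and the normalization of the deposited values is not given. Groups of 2 arrays were too small for a test of single outlying arrays.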

How the results depend on the processing

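The refitted values counted here belong to 61 results of single genes. These are all members between tissues and subsets, but in genotype comparisons only members with an unadjusted limma p under 0.05. Of these values, 460 kept direction and side of the threshold under other settings and 5 lost their call, 1 gained one and 3 changed sign. Those that kept their side include values not called in either fit. On leaving out 1 array or mouse, these counts were 519, 19, 3 and 3. On the values as deposited, Myo1e in CD24+ cells turned to -0.13 for culture minus spleen. With dim genes left out, Tpm2 in CD172a+ cells turned to 0.0929. Quantile normalization turned the culture subset difference of Tpm3 to -0.0197. None of these 3 values passed the threshold. On leaving out 1 array, culture minus spleen for Tpm2 in CD172a+ cells ranged from -0.11 to 0.007. The spleen subset difference of Fscn1 then ranged from -0.16 to 0.0210, and the change in subset difference of Tpm4 from -0.16 to 0.0157.

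For KO minus WT in spleen CD24+ cells, 0 members passed with probe sets of several or no symbol added, in the fit of the spleen arrays alone, and with the mouse as a random replicate block. On leaving out 1 array, 0 to 1 members and 1 to 35 of all tested genes passed. In culture CD24+ cells leaving out 1 array gave 0 to 3 members and 10 to 1269 genes, and the culture arrays alone gave 4 genes. In culture CD172a+ cells these counts were 7 to 45 and 7. For the genotype effect by subset in spleen, 1 gene passed in the spleen arrays alone, 1 with the mouse as a fixed replicate block and 1 to 4 on leaving out 1 array. In culture, 2 genes passed in the culture arrays alone, 8 with the fixed replicate block and 2 to 35 on leaving out 1 array. Over all mice, 4 to 11 genes passed on leaving out 1 mouse. The replicate block ended the Tpm2 genotype call in spleen CD24+ cells and changed no other call of a member. The causes of these changes were not tested. With 2 arrays in a group, only large genotype differences can pass, and the number of arrays limits the precision of every value.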
